A study of Mus musculus with 188 samples.

Results

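The cells described here are 13 single diploid mouse embryonic stem cells (mESCs) in S-phase whose 129 and Castaneus chromosomes were most often in different replication states. They were selected on 1 measure, the share of autosomal 50 kb bins in which only 1 of the homologs was called replicated, and every cell with a share of 1% or more was taken. This gave 13 of the 63 diploid cells with values, out of 96 labelled diploid S-phase cells and 188 labelled cells in the series. Because the share itself chose the cells, it is given below as a description, and the values compared are the direction, position, length and timing of the differences within each cell.

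A diploid cell copies the homologous chromosomes inherited from its parents in the same S-phase, and in most domains both copies replicate at about the same time. Each stretch of the genome has a usual time within S-phase, with gene-rich, active chromatin early and gene-poor, inactive chromatin late. Replication of 1 homolog well before the other is known at imprinted loci, at olfactory and antigen receptor clusters and on the inactive X chromosome.

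The study measured DNA copy number in single nuclei, since replicated DNA is present in more copies than unreplicated DNA of the same cell. The diploid line, F121-9, comes from a cross of 129 with Castaneus mice and holds a full set of chromosomes of each, whose sequence differences tell the homologs apart. H129-2 is a haploid line of the 129 strain. Both lines were grown without feeders in medium with 2i and LIF, their nuclei were stained with DAPI, sorted by DNA content into wells, and the DNA was amplified with SeqPlex and sequenced. No treatment distinguished the groups. The titles of the diploid cells end in well names, which were read here as wells of 1 plate. The labels name no culture, so the cells stand for 1 line and are not replicates of a condition. No p-value is given, and every SD below is the spread over cells. Cells are named by their plate well.

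Each value was a call made by the authors on 46743 autosomal bins, 0 for unreplicated and 1 for replicated, with 1 column for the 129 and 1 for the Castaneus homolog of a cell. A bin is called 129-first here where only the 129 homolog was replicated, and Castaneus-first in the reverse case. These names describe the state at the moment of sorting. Both homologs carried the same state unless the parsed reads of a segment passed a limit, so the asynchronous share is a count of confident calls. The limit for 129-first lay slightly nearer 0 than that for Castaneus-first, and an excess of 129-first bins therefore has no neutral baseline. The depth of each cell, and the parsed reads behind each call, are unknown from these values. Copy number gives no check of the cell type, and the strain of each homolog was taken as labelled.

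The asynchronous share ran from 1.02% in cell B5 to 8.50% in cell F11, with a median of 2.19%. Cell F11 was followed by D10 with 5.94%, H4 with 5.83%, H6 with 3.76%, H3 with 3.04% and G7 with 2.82%. The remaining cells were H8 with 2.19%, H10 with 2.06%, H9 with 1.67%, G4 with 1.62%, A10 with 1.51%, A5 with 1.32% and B5. Just outside the limit lay cell E12 with 0.928% and cell G2 with 0.830%. The 13 cells held 76% of all asynchronous autosomal bins of the 63 diploid cells, and 18 of the other 50 cells had none. In length, the differing sequence came to between 23.8 Mb in B5 and 198.6 Mb in F11.

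The cells were not spread evenly over the plate. Row H held 6 of the 13, and 6 of its 7 cells with values were chosen. Rows A and G held 2 each, rows B, D and F held 1 each, and rows C and E held none, with 11 and 10 cells measured there. The median asynchronous share was 2.19% in row H and at most 0.640% in any other row. The part of the plate row in these results was not tested. Values without the 6 cells of row H are given beside some results. Among others, flanks, chromosomes, intervals of the schedule, base composition, position and gene lists have none.

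**Figure D1:**
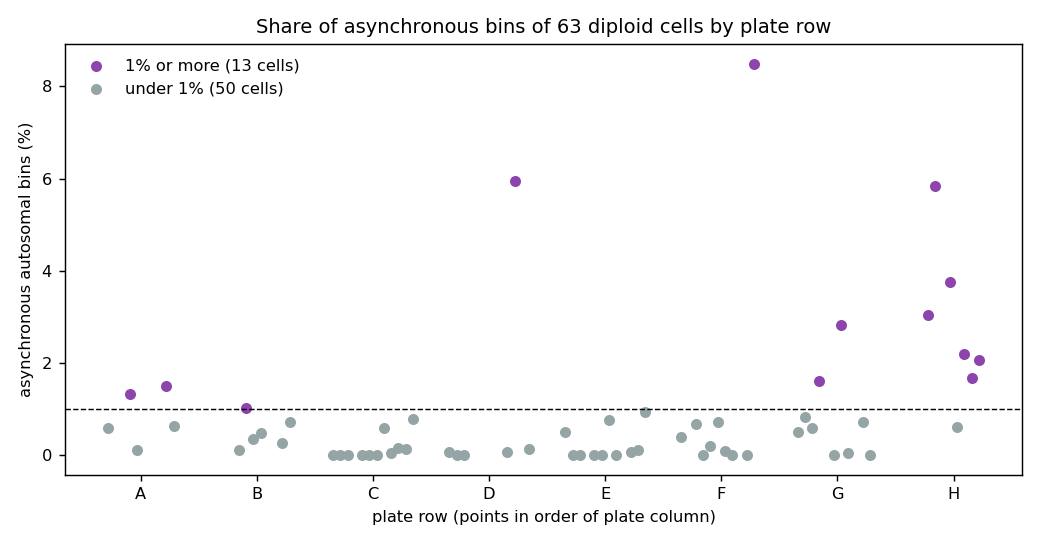
Share of autosomal bins whose homologs differed (y axis, percent) for each of the 63 diploid cells, grouped by plate row (x axis), with purple points for the 13 chosen cells and a dashed line at 1%. Row H holds 6 purple points, and the highest points, F11 and D10, lie in other rows.

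In progress, state changes, states against the schedule and roughness, the 13 cells lay within the range of the other 50. They had replicated 54% ± 6.31 of their autosomal bins (SD, n = 13), and the other cells 53.9% ± 10.2 (SD, n = 50). All 13 lay between 38.4% in A5 and 60.7% in H9, so no very early or late cell was among them. The 7 chosen cells outside row H had replicated 52.7% ± 7.28 and the 6 within it 55.5% ± 5.18. The number of replicated homologs changed between neighboring bins 1025 ± 84 times per cell, against 913 ± 111 in the other cells, and asynchronous segments add such changes of their own. States that went against the order of the schedule described below made up 15.4% ± 3.09, against 12.4% ± 3.40. An asynchronous bin counted partly toward this measure whatever its schedule, so the choice of cells adds to it. The roughness of the smoothed profile, its median step between adjacent bins, 0.0139 ± 0.000705 against 0.0141 ± 0.00101, differed by less than its spread. No chosen cell was nearly identical to another cell, since the closest match, of G4 to E8, still differed at 12.8% of bins.

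The 129 homolog was ahead more often than the Castaneus homolog in each of the 13 cells. The 129-first share was 1.93% ± 1.25 and the Castaneus-first share 1.25% ± 1.10 (SD, n = 13). Within a cell they differed by 0.678 ± 0.655 percentage points, and the difference was above 0 in 13 of 13 cells. The size of the difference varied more than its sign. In H4 the shares were 4.06% and 1.77%, and in G7 they were 2.29% and 0.531%. In H8, H6 and H3 the homologs were nearly balanced, with 1.12% against 1.07%, 1.92% against 1.84% and 1.57% against 1.46%. Of all the asynchronous bins of a cell, 51.2% in H6 to 81.2% in G7 were 129-first, with a mean of 63.6% ± 10.2.

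The most asynchronous cell was not the most one-sided. F11 had 4.55% of bins 129-first and 3.94% Castaneus-first, and D10 had 3.16% and 2.79%. Among the cells of lower share the 129 side was more than double the Castaneus side in H10, with 1.44% and 0.625%, in H9, with 1.24% and 0.432%, in A5, with 0.941% and 0.381%, and in B5, with 0.708% and 0.310%. The excess was 0.695 ± 0.860 percentage points in the 6 cells of row H and 0.664 ± 0.490 in the other 7. Among the 50 cells under the limit, 26 had more 129-first bins and 5 had more Castaneus-first bins.

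**Figure D2:**
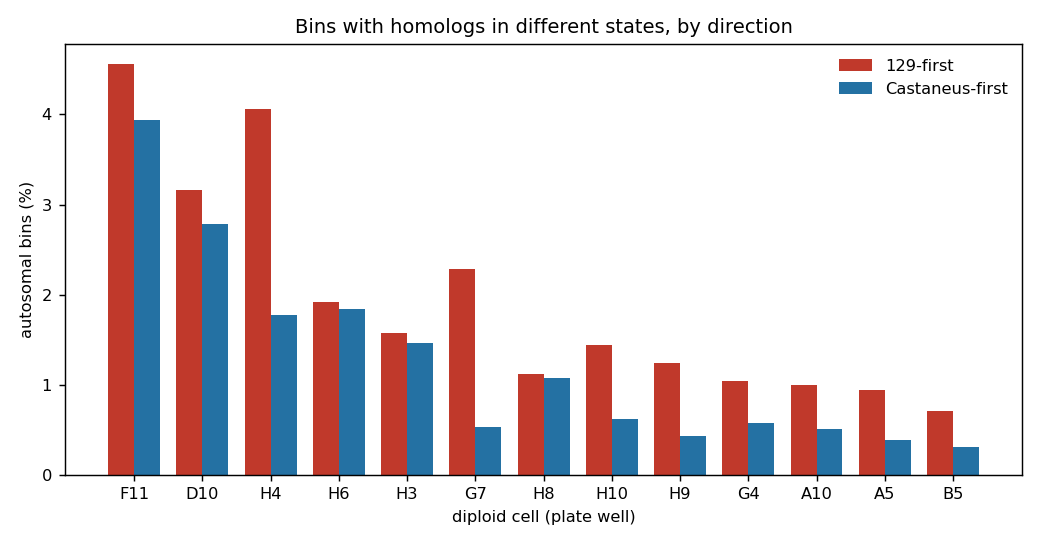
Percent of autosomal bins (y axis) with only the 129 homolog replicated (red bars) or only the Castaneus homolog replicated (blue bars) in each of the 13 cells (x axis), in order of the total share. The red bar is the taller one in every cell, by 0.0535 percentage points in H8 and by 2.29 in H4.

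The differences came in segments. A segment is a run of neighboring bins that differ in the same direction. The 13 cells held 1103 segments, 672 of them 129-first and 431 Castaneus-first, and each cell had more of the former. Their number ran from 20 in B5 to 197 in F11. The median length was 700 kb for 129-first and 750 kb for Castaneus-first segments, and only 10 of the 1103 were under 250 kb. The authors cut the profile into pieces with a set minimum number of bins and changed only whole pieces. The scarcity of short segments was therefore fixed by the processing and is no result about the homologs. Within a cell the median was 783 ± 234 kb for 129-first and 779 ± 204 kb for Castaneus-first segments, longer for the former in 5 cells and shorter in 6. Over both directions it was 773 ± 203 kb, and 743 ± 230 kb without row H. The 129 excess lay in the number of segments. The median lengths of the directions differed by less than the SD of either over cells, and the spread of their difference within a cell was not computed. Runs in which both homologs were replicated had a median of 1450 kb, and runs in which neither was had a median of 1300 kb.

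Few segments were very long. A length of 2 Mb or more was reached by 72 segments, which made up 6.55% of the 129-first and 6.5% of the Castaneus-first segments. The longest 129-first segment, chr11:83800001-89200000 in G7, measured 5.4 Mb. It held the starts of 71 protein-coding genes, among them that of Acaca, an acetyl-CoA carboxylase of fatty acid synthesis. The region was scheduled early, at 2.47 h of a 10 h S-phase. The next 129-first segments were chr4:29350001-33650000 in H4, of 4.3 Mb, with the kinase gene Map3k7 and the transcription factor gene Bach2, and chr6:104000001-107600000 in G7, of 3.6 Mb, with the neural adhesion genes Cntn6 and Cntn4. These were scheduled at 6.23 h and 9.10 h.

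The longest Castaneus-first segment was chr10:39150001-44000000 in H6, of 4.85 Mb. Among its 47 protein-coding gene starts were those of Fyn, a tyrosine kinase, and Rev3l, the catalytic subunit of a translesion DNA polymerase, and the region was scheduled at 2.23 h. It was followed by chr17:58350001-62200000 in H8, of 3.85 Mb and scheduled at 9.36 h, with only Pdzph1 and Nudt12, and by chr13:68600001-72200000 in F11, of 3.6 Mb and scheduled at 6.28 h, with Adcy2, an adenylate cyclase, and Nsun2, an RNA methyltransferase. The 6 longest segments thus spanned early and late regions in both directions. Each lay in 1 cell, although parts of each were also asynchronous in 1 to 3 of the other chosen cells.

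Segments were found in all settings of the profile. Of the 1103, 33.7% lay between stretches replicated on both homologs, 29.6% between stretches unreplicated on both, and 31.6% on the border of a replicated and an unreplicated stretch. Their median lengths were 550 kb, 950 kb and 600 kb. The first setting was the more frequent for 129-first segments, with 36.6% against 29.2% of Castaneus-first segments. The second held 28.1% and 32%, and the border 31.4% and 32%. A direct switch from 129-first to Castaneus-first or back bounded 10 of the 1103 segments.

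The smoothed copy number score, made from the reads of both homologs together, was read over the same segments. The authors cut and binarized this same profile before 1 copy of a segment was changed, so the score is no independent check of the states. A relative score was set to 0 at the mean of bins unreplicated on both homologs of the cell and to 1 at the mean of bins replicated on both, so that a segment copied on 1 homolog would lie near the middle. Over asynchronous bins the relative score was 0.343 ± 0.207 (SD, n = 13), from 0.0375 in A5 to 0.792 in H3. It lay below 0.5 in 10 cells, and above it in H3, in B5 with 0.523 and in D10 with 0.507. The 129-first bins had 0.367 ± 0.220 and the Castaneus-first bins 0.324 ± 0.220, with the former higher in 9 of 13 cells. The score was 0.410 ± 0.225 in the cells of row H and 0.285 ± 0.187 in the other 7. In the 32 other cells with asynchronous bins it was 0.528 ± 0.309.

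Counted by segment, 41.8% of the 1103 had a relative score between 0.25 and 0.75, while 29.9% lay at or below this range and 28.3% at or above it. The score differed with the setting of the segment. It was 0.932 ± 0.297 for segments between replicated stretches, 0.466 ± 0.0835 for those on a border and 0.103 ± 0.153 for those between unreplicated stretches (SD over the means of 13 cells). Between 0.25 and 0.75 lay 61% of the segments on a border, but 36% of those in replicated and 30.6% of those in unreplicated surroundings. The profile was smoothed by the authors over neighboring bins, so the score of a short segment also holds that of its flanks. The states of the flanks, and that of the segment before 1 copy was changed, were called from this same profile. A relation of score to setting was thus in part built in.

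The score also differed with the length. Segments under 500 kb had a mean of 0.910 ± 0.324 (SD, n = 12), those of 500 kb to under 1 Mb 0.604 ± 0.267 (n = 13), those of 1 to under 2 Mb 0.195 ± 0.208 (n = 13) and those of 2 Mb or more 0.0276 ± 0.313 (n = 11). The mean score of the longest class was thus near that of unreplicated bins, although 1 homolog was called replicated there. Among the 6 longest, only the segment in H6 came near the middle, with 0.363. The values were 0.00627 and -0.506 for the pair in G7, 0.0734 in H4, -0.502 in H8 and 0.0678 in F11. Taking only segments of 1 Mb or more, the mean over asynchronous bins was 0.138. Length and setting were not separated, and segments between replicated stretches had a median of 550 kb, those between unreplicated stretches 950 kb.

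**Figure D3:**
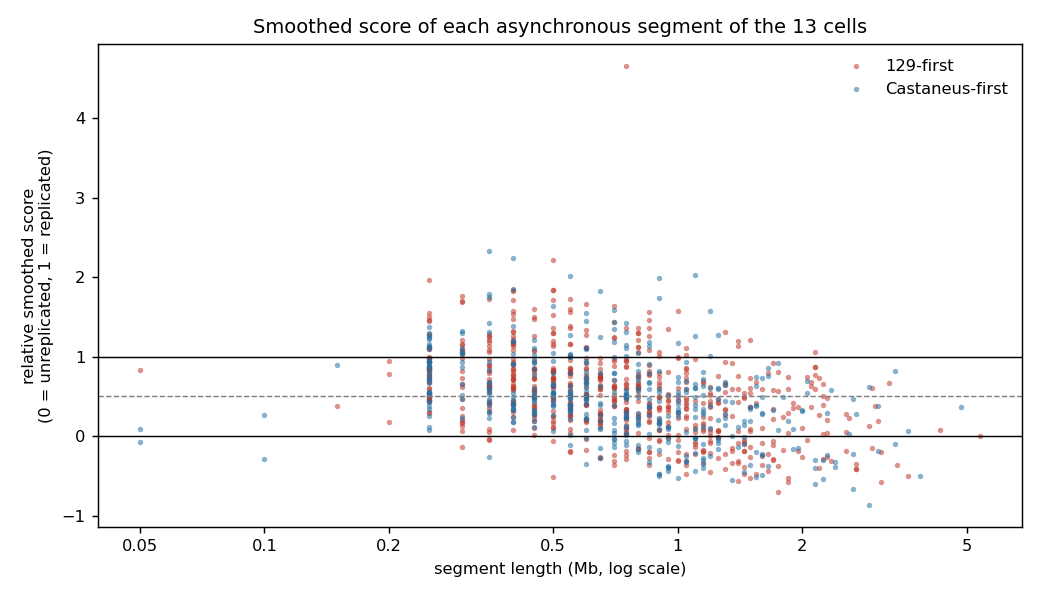
Relative smoothed score (y axis; lines at 0 and 1 are the means of bins unreplicated and replicated on both homologs of the cell, the dashed line is 0.5) against segment length (x axis, Mb, log scale) for the 1103 segments, each a point, red for 129-first and blue for Castaneus-first. Most points under 0.5 Mb lie above the dashed line and most points over 2 Mb below it, in both colors.

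Asynchrony was spread over most autosomes of each cell. The cells had asynchronous bins on 16.9 ± 2.60 of their 19 autosomes, with 11 in B5 as the lowest number. The chromosome with the most asynchronous bins held 17.2% ± 4.86 of them, from 10.5% in F11 to 27.5% in A5, and 9 different chromosomes took this place. It was chromosome 1 in H4, H3 and G4, chromosome 2 in D10 and A10 and chromosome 9 in F11 and B5. It was chromosome 7 in H6, 4 in G7, 6 in H8, 17 in H10, 11 in H9 and 3 in A5. The mean share was highest on chromosome 15, with 4.72% ± 5.94, and lowest on chromosome 19, with 1.21% ± 1.82. Their difference was less than the SD of the former and more than that of the latter.

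The 129 homolog was ahead on average on 16 of 19 autosomes and the Castaneus homolog on chromosomes 13 and 15, while the mean shares on chromosome 16 were equal at 0.976%. The widest mean difference, 1.65 ± 2.36 percentage points, was on chromosome 8, where 129-first bins were the more frequent in 11 of 13 cells. It was 1.14 without D10, which had 7.74 there. On chromosome 1 the difference was 1.16 ± 1.08, positive in 11 cells and negative in A10. On chromosome 18 it was 1.21 ± 1.03, with 10 cells positive, none negative and 3 with no asynchronous bin.

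On both reversed chromosomes the widest difference was that of F11, and without it the sign stayed on chromosome 13 and turned on chromosome 15. On chromosome 13 the difference was -0.755 ± 2.30, with 7 cells negative and 5 positive, and -0.238 without F11, which had -6.96. On chromosome 15 it was -0.309 ± 3.70, although 8 cells were positive and 5 negative, and 0.575 without F11, which had -10.9. F11 and H4 went opposite ways on chromosome 15, since H4 had 6.10 there. On chromosome 17, H8 had -6.86 while F11 had 5.96 and H10 had 4.39.

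**Figure D4:**
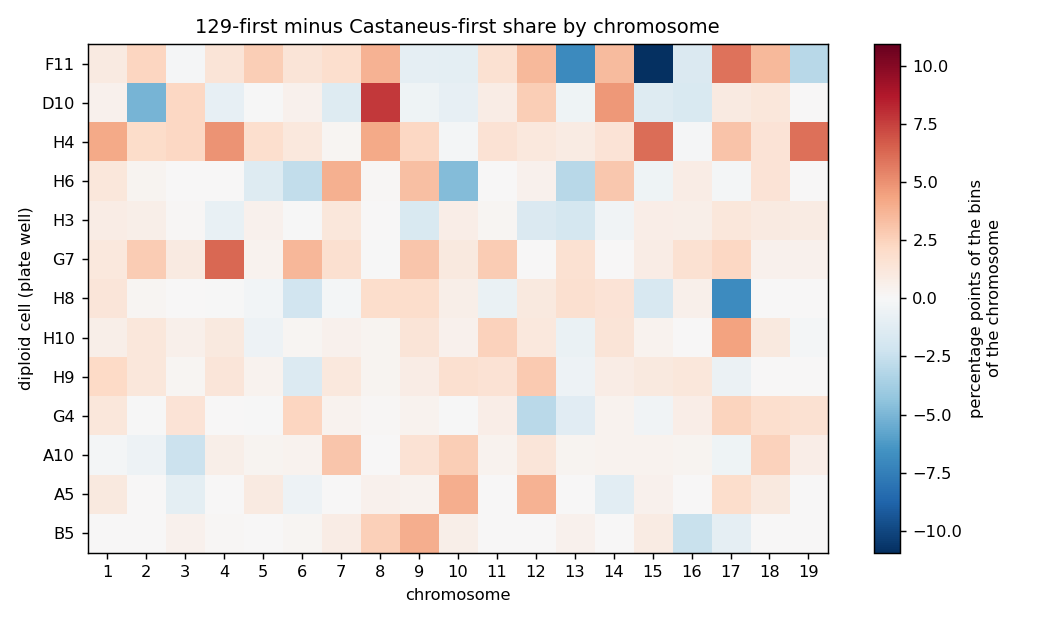
Difference between 129-first and Castaneus-first bins, in percentage points of the bins of the chromosome (color scale), for the 13 cells (y axis, in order of asynchronous share) on each autosome (x axis), red where 129-first bins were more frequent. Red fields prevail in most columns, and the deepest blue is chromosome 15 of F11 with -10.9.

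The next question was whether the homologs differed when a region was due for replication. Bins were ranked by their smoothed score averaged over every other cell, haploid and diploid, and the rank was read as a scheduled time on a 10 h S-phase. Bins within 1 h of their scheduled time were asynchronous in 3.53% ± 2.56 of cases and bins more than 3 h from it in 3.01% ± 2.22 (SD, n = 13). The difference, 0.524 ± 1.02 percentage points, was positive in 9 cells and negative in 4 and lay within the spread over cells. It was 2.00 in D10 and 1.55 in G7, but -1.45 in H8 and -1.08 in A5, the cells that had replicated least. Without row H it was 0.721 ± 1.08. Of the asynchronous bins of a cell, 21.8% ± 5.95 lay within 1 h of schedule, where 20% of all bins lay.

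The mean share changed little with time from schedule. In intervals of 1 h their share lay between 2.76% and 3.59% from 6 h after schedule to 5 h before it, and the SD of each interval was at least 2.01. In each of these 11 intervals the mean 129-first share was the higher one, with 1.97% and 1.55% in the hour before schedule as the closest pair. From 5 to 6 h before schedule only 3 cells had values, with a mean of 0.895% 129-first and 1.26% Castaneus-first, 129-first being higher in 2 of the 3. Bins still to be replicated by schedule made up 47.9% ± 17.4 of the asynchronous bins, from 10.4% in B5 to 75.4% in A5. The asynchronous bins of A5 were thus mostly in regions due later, and those of B5 in regions already due.

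**Figure D5:**
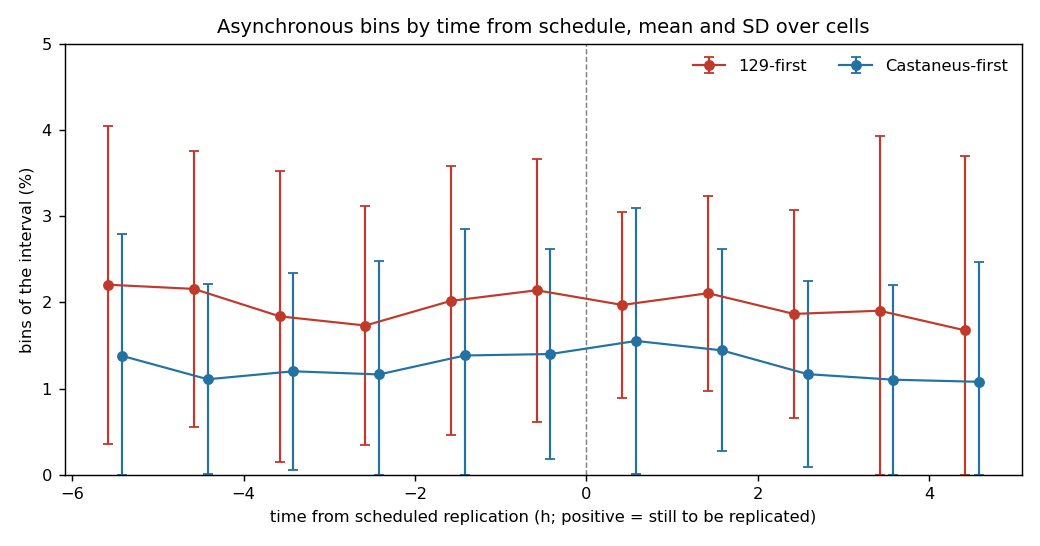
Percent of bins (y axis) that were 129-first (red) or Castaneus-first (blue) by time from scheduled replication in intervals of 1 h (x axis, positive for bins still to be replicated), as the mean over 10 to 13 cells with bars of 1 SD, stopped at 0 where they would pass it; intervals with fewer cells are not drawn. Both lines are nearly flat, between 1.68% and 2.21% for red and between 1.08% and 1.55% for blue, and the bars overlap throughout.

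The directions did not differ in schedule beyond the spread over cells. The mean scheduled time was 5.05 ± 1.04 h for 129-first and 5.09 ± 1.08 h for Castaneus-first bins. The difference within a cell was -0.0379 ± 0.730 h, with the 129-first bins later in 6 cells and earlier in 7, from -1.59 h in H3 to 0.998 h in B5. It was 0.113 ± 0.671 h without row H. Asynchronous bins made up 2.98%, 3.13%, 3.44%, 3.58% and 2.86% of the bins in successive 2 h intervals of the schedule. The 129 excess was present in each interval, between 0.494 ± 0.822 percentage points at 6 to 8 h and 0.796 ± 0.630 in the first 2 h.

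Mean base composition and gene density of the directions differed by less than the SD of either direction over cells. For these measures and for position, the spread of the difference within a cell was not computed. The GC content was 42.2% ± 1.56 in 129-first and 42% ± 1.45 in Castaneus-first bins, and 42% over all bins. Protein-coding gene starts per bin numbered 0.387 ± 0.113 and 0.348 ± 0.111, against 0.429 over all bins. Position along the chromosome differed more. Counted in percent from the centromeric end, 129-first bins lay at 50.0 ± 6.51 and Castaneus-first bins at 56.1 ± 6.33, where all bins lay at 51.5 on average. Castaneus-first bins lay above the mean of all bins in 12 of 13 cells and 129-first bins in 6. Within a cell, Castaneus-first bins lay further along in 9 cells and 129-first bins in 4.

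Most asynchronous places belonged to 1 cell. At least 1 of the 13 cells was asynchronous in 15647 bins, 33.5% of the autosomal bins. Of these, 3127, or 6.69% of the autosomal bins, were asynchronous in 2 or more cells and are called recurrent. The number expected from the shares of the cells alone was not computed, so the counts do not show preferred places. In 1222 of the 3127 all calls were 129-first, in 457 all were Castaneus-first, and in 1448 the cells went opposite ways. Without row H, 880 bins were shared by 2 or more of the 7 cells. Over the 78 pairs of cells, 4254 shared bins were counted, of which 59.1% had the same direction, and 13 pairs shared none. The percentage was 71.3% over the 15 pairs within row H, 52.9% over the 42 pairs with 1 cell in it and 64.6% over the 21 pairs without. F11 and D10, the cells with the highest asynchronous shares, shared the most bins of any pair, 308, with the same direction in 223. Agreement in direction was not set against that expected from the 129 excess of the cells.

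Only 61 bins, in 12 regions, were asynchronous in 4 or more cells, and 13 bins in 2 regions were so in 5. The first, chr10:105600001-105950000, was 129-first in H4, H6, G7, H10 and H9, with all 5 cells at 3 of its 7 bins. It holds the starts of Ccdc59 and Mettl25 and was scheduled at 7.01 h. The second, chr15:90950001-91650000, was Castaneus-first in D10, H4, H6, G7 and H10, with all 5 cells at 10 of its 14 bins. It holds the starts of Kif21a, a kinesin motor, Abcd2, a peroxisomal fatty acid transporter, CN725425 and Slc2a13, an inositol transporter, and was scheduled at 6.98 h. In both regions no other diploid cell was asynchronous. H4, H6, G7 and H10 had a part in both, in opposite directions, and 3 of these 4 are in row H.

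Of the 12 regions, 5 were only 129-first, 1 was only Castaneus-first and 6 held both directions. One of the former, chr9:25350001-25500000, at the start of Eepd1, was 129-first in H6, H3, H8 and H10. The other on this chromosome, chr9:29550001-29650000, without a gene start, was 129-first in H6, H8, H10 and A10. A pair of bins at Piezo2, a mechanosensitive ion channel gene on chromosome 18, was 129-first in F11, D10, G4 and A10. The largest mixed region, chr8:12450001-13050000, was due at the start of S-phase, at 0.123 h. It was 129-first in F11, D10 and B5 and Castaneus-first in H6, and holds Tubgcp3, a component of the gamma-tubulin complex, and Atp11a, a phospholipid flippase. The region chr1:39750001-40050000 with the kinase gene Map4k4 was 129-first in D10 and H4 and Castaneus-first in F11 and H3.

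The 50 cells under the limit were not used to find these bins and could be read at the same places. They are of the same line and, as read here, the same plate as the chosen cells, so they were not taken as a separate experiment. At the 1222 recurrent 129-first bins they held 173 129-first and 79 Castaneus-first calls, from 12 and 10 cells. At the 457 recurrent Castaneus-first bins they held 13 and 45 calls, from 3 and 8 cells. The 129 share of these cells' asynchronous calls was therefore 68.7% at the former and 22.4% at the latter, against 68.5% at bins asynchronous in none of the 13 cells and 64.1% over all autosomal bins. The Castaneus direction thus recurred at its own bins in these cells, but only 58 calls in neighboring bins bear on it. At the recurrent 129-first bins the 129 share of the calls was close to that at bins asynchronous in none of the 13 cells, while asynchronous calls of either direction were more frequent there, at 0.412% against 0.212% of bins.

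Haploid H129-2 cells carry only 129 chromosomes, and their schedule was set against that of the 50 other diploid cells. The haploid minus diploid scheduled time was 0.0213 ± 0.196 h at 129-first and 0.166 ± 0.255 h at Castaneus-first bins of the 13 cells. The first was lower by 0.145 ± 0.290 h, in 8 cells, and higher in 5, a difference within the spread over cells. At the recurrent bins the values were 0.0883 h and 0.340 h. On average over the bins of chr10:105600001-105950000, 40% of the haploid cells and 11.4% of the homologs of the other diploid cells had replicated, and over chr15:90950001-91650000 31.9% and 27%. The haploid cells were sorted with wider gates, so these percentages are not at matched progress.

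At the level of genes, the start bin was asynchronous in at least 1 of the 13 cells for 6295 of 20048 protein-coding genes, a background of 31.4%. The start was 129-first for 20% and Castaneus-first for 13.7% of them. Neighboring genes share bins and segments, so the genes of a cluster are not separate observations. Of the lists below, the share was 30.2% for imprinted, 35.7% for pluripotency and 26.9% for olfactory receptor genes. It was 37.8% for vomeronasal receptor genes, 31.7% for antigen receptor genes and 35.3% for genes of 500 kb or more. These shares lay near the background, on both sides of it. Clustered protocadherins had the highest share, 71.9%, which came from a single cell.

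Among 53 imprinted genes tested, which are transcribed from 1 parental copy, 16 had an asynchronous start, 13 of them 129-first and 6 Castaneus-first. Of the 16, 9 were neighbors in the Kcnq1 domain of chromosome 7, with the potassium channel gene Kcnq1, its antisense RNA gene Kcnq1ot1, the cell cycle inhibitor gene Cdkn1c and Ascl2, and all were 129-first in H3 alone. At the Dlk1-Meg3 locus of chromosome 12, Dlk1 and Meg3 were 129-first in F11 and Castaneus-first in G4, and Rtl1 and Rian were Castaneus-first in G4. Impact was 129-first in H6 and Castaneus-first in F11 and G7. Plagl1 was Castaneus-first in H4, and Kcnk9 was 129-first in F11. The 2 loci with more than 1 cell thus had both directions, and which parent gave each homolog is not given in the labels used here.

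Of 28 pluripotency genes, 10 had an asynchronous start, 9 of them 129-first and 1 Castaneus-first. These genes are scheduled early, at a median of 1.64 h. Sox2 and Klf2, transcription factor genes of the stem cell network, and Lin28a, an RNA-binding protein gene, were 129-first in D10. Mycn was 129-first in D10 and H9. Myc was 129-first in F11, Tfcp2l1 in H4, Klf5 and Fgf4 in H6, and Lifr, the receptor gene for LIF, in H3. The exception was Prdm14, which was Castaneus-first in F11. Apart from Mycn, each gene was asynchronous in 1 of the 13 cells.

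Receptor gene clusters were mostly late. Of 1115 olfactory receptor genes, which lie in 562 bins and had a median scheduled time of 6.61 h, 300 had an asynchronous start, 154 129-first and 160 Castaneus-first. Chromosome 7 held 161 of these, 50 of them 129-first in A10, G7, H3 or H6 and 114 Castaneus-first in D10 or H6. The 29 genes on chromosome 19 were all 129-first in H4, and the 22 on chromosome 10 were 129-first in H10 or H6. On chromosome 14, 8 were 129-first in D10 and 30 were Castaneus-first in H10 or H3. Of 222 vomeronasal receptor genes, 84 had an asynchronous start, 42 in each direction. The 19 on chromosome 17 were 129-first in A5 and the 24 on chromosome 6 Castaneus-first in F11 or H8.

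The antigen receptor genes, which encode the segments of antibodies and T cell receptors, were asynchronous in 113 of 356 cases, 5 of them 129-first and 108 Castaneus-first. This imbalance came from 3 loci in 3 cells. The 48 genes of the immunoglobulin kappa locus on chromosome 6 were Castaneus-first in H9, the 55 of the heavy chain locus on chromosome 12 in G4, and 5 of the T cell receptor gamma locus on chromosome 13 in F11. The 5 genes on chromosome 14 were 129-first in D10. Likewise the 41 of 57 clustered protocadherin genes, which encode neuronal adhesion molecules, were all Castaneus-first in F11.

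Genes of 500 kb or more, which are late and include sites prone to breakage under replication stress, had an asynchronous start in 77 of 218 cases, 52 of them 129-first and 36 Castaneus-first. Ntm, a neural adhesion gene, was 129-first in H6, H8 and H10. Kcnq5 was 129-first in G7 and H9 and Castaneus-first in F11, and Wwox, a gene at a common fragile site, was 129-first in H4 and G7 and Castaneus-first in D10. Csmd1 was 129-first in F11 and G4, Dlgap2 in D10 and H3, and Slc7a11, a cystine transporter gene, was Castaneus-first in H3 and H9. In all, 18 of the 77 were asynchronous in more than 1 cell and 11 had both directions.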

How the data were processed

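The labels name 188 cells, and plate wells tied columns to 63 diploid and 75 haploid cells in S-phase. A further 24 columns fitted no labelled cell and were left out. The authors aligned reads to mm10 with Bowtie2, removed duplicates with SAMtools and counted reads in 50 kb bins; bedtools is also named in their processing notes, and versions are not given in the sources used here. Coverage was divided by that of G1 and G2 cells, centered, scaled and median smoothed, and the deposited smoothed value is a score without a fixed unit. The deposited binarized state of a bin is 0 or 1. The authors segmented and binarized the profile of both homologs together, copied it to each homolog, and changed 1 copy of a segment only where it had enough parsed reads and their log ratio passed limits derived from G1 and G2 controls. These limits lay beyond the ratio that 1 replicated and 1 unreplicated homolog would give in theory. Shallow and outlying cells had been discarded by the authors.

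Here, shares were taken over 46743 autosomal bins with a state. The schedule covered 45112 bins scored in 50% or more of the cells of each line, with the cell itself left out. GC content came from the GRCm38.p6 reference and genes from GENCODE vM21. Genes named are those in the 3 longest segments of each direction and in the regions with most cells, at most 6 each in chromosome order, and genes of the lists with an asynchronous start. The members and gene lists were chosen with earlier results of these data known. Depth per cell is unknown, so no counting interval is given. Scripts used Python 3.11.15, numpy 2.4.6, pandas 2.3.3 and matplotlib 3.10.9 and were tested on simulated data.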

Additional observations from a re-analysis of the deposited data

Results flagged for a closer look

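The X chromosome was outside the comparisons above, which used autosomes, and it carried asynchronous bins. In the 13 cells, 1.21% ± 1.03 of 2845 X bins were asynchronous (SD, n = 13). They were present in 10 of the 13 cells, with 2.92% in H4 as the highest value, and H6, A5 and B5 had none. The 129-first share was 0.576% ± 0.774 and the Castaneus-first share 0.633% ± 0.599. In the other 50 diploid cells the X share was 0.169% ± 0.489, with asynchronous bins in 7 cells. The number of X chromosomes in each cell was not determined here.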

How the results depend on the processing

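For 16 results, 73 alternatives were run, of which 62 kept the direction and stayed within 1 SD over cells, or within 1.5 times for a count. The alternatives that leave out row H, and the relative score of segments of 1 Mb or more, were chosen after seeing the data. The 129-first excess stayed between 0.403 and 0.763 percentage points in its 6 alternatives, and the near minus far difference between 0.434 and 0.781 in its 10. The scheduled-time difference between directions, -0.0379 h, changed sign to 0.0483 h with members at 0.5% or more, 0.0959 h without the leading chromosome of each cell, 0.0341 h with the schedule of the other diploid cells and 0.113 h without row H. The progress of the chosen cells minus that of the others, 0.0801 percentage points, became -1.22 without row H. The cause was not tested, and both values lay far within the spread over cells. With 28 members at 0.5% or more, the leading chromosome held 22.1% of the asynchronous bins, and 4835 bins recurred in 2 or more cells. Recurrent bins numbered 446 with 3 or more cells required and 880 without row H, as fewer bins or cells could count. The mean of the median segment lengths, 773 kb, fell to 540 kb when only bins with a score were used, since missing bins break runs. Counting any bin of the gene body raised the number of long genes from 77 to 120 of 218, and that of all protein-coding genes from 6295 to 6567 of 20048; a long gene covers more bins. No paired analysis was possible because a shared well number ties no haploid cell to a diploid one; the homologs were compared within each cell throughout. Depth limits all shares, since segments with few parsed reads could not be called.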
